A study of Mus musculus with 3 samples.

Results

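The 40 genes described here are DNA replication genes, a list that runs from the licensing of replication origins to the chromatin behind the fork. They were chosen by symbol, and all 40 were found among the 33696 genes measured. The rule used their names and not their levels, but the list was drawn up with earlier results of these data known. The members were sorted into 9 roles, which order the results.

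The cells were pmel CD8+ T cells, which carry a transgenic T cell receptor for the melanocyte antigen gp100 and the congenic marker Thy1.1. Before transfer they were stimulated with gp100 peptide and preconditioned with 10 nM cytokine, which was sIL-2, sIL-2 plus IL-21, or IL-2/21-Trikine. sIL-2 is an engineered IL-2 that binds IL-2Rβ with high affinity, and IL-2/21-Trikine joins sIL-2 to an IL-21 mutant that binds IL-21Rα but does not engage the common γ chain. The cells were transferred into C57BL/6 mice with subcutaneous B16F10 melanoma that had been irradiated with 6 Gy, and the mice then received 4 intraperitoneal doses of 2.5 μg of cytokine. Mice of the IL-2/21-Trikine group received the Trikine. Mice of the sIL-2 group and of the sIL-2 + IL-21 group both received sIL-2, so these groups differed only in the preconditioning. Tumors were harvested 18 days after tumor injection, and live Thy1.1+CD8+ cells were sorted and sequenced as 1 library per treatment. With 1 library each, a difference between treatments cannot be told apart from a difference between libraries, no test between treatments was possible, and the intervals below cover counting error only.

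Replication origins are licensed before S phase, when CDC6 and CDT1 help to load the MCM helicase onto DNA. In S phase CDC45 and the GINS complex switch the helicase on, DNA polymerases copy both strands around the sliding clamp PCNA, and ribonucleotide reductase, thymidylate synthase and thymidine kinase supply the nucleotides. Many of these genes are targets of E2F transcription factors, which the retinoblastoma protein holds in check until a cell commits to divide, and activated CD8+ T cells switch them on together as they expand.

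Some proximal promoters of the members hold an E2F-type motif. Sequence was not used to choose the genes, but many are E2F targets, as said above, so such motifs are no independent trait. RefSeq promoter windows (mouse build GRCm38.p6, 250 bases before to 50 bases after the transcription start) were matched by symbol for 34 of the 40 members, all except *Ccne2*, *Exo1*, *Gins1*, *Gins2*, *Mcm4* and *Pole*. The E2F-type motif TTTNNCGC, searched on both strands, lay in a window of 16 of these 34 members (47.1%), against 15 of 39 other replication genes (38.5%), 1 of 27 mitotic genes (3.7%) and 5.93% of all 27025 genes with a window. The median GC content of the windows was 58.3%, 64.2%, 59% and 52.7% in the same order. Of its narrower forms, TTTGGCGC lay in windows of 7 members (20.6%, against 5.13% of the other replication genes and 0.585% of all genes) and TTTCCCGC in those of 6 (17.6%, against 20.5% and 1.24%), neither lay in a window of the mitotic genes, and both are counted within TTTNNCGC as well. The motif TTTGAA, part of the element of many mitotic promoters, was found for 4 members (11.8%), 20 mitotic genes (74.1%) and 20.2% of all genes. CCAAT was found for 20 members (58.8%), 21 mitotic genes (77.8%) and 41.1% of all genes. These matches are descriptions of letters and do not show binding.

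The 5 stretches printed here, picked after the values were seen, belong to members with contrasting behaviour in the libraries. *Cdc6* had the highest ratio of sIL-2 + IL-21 over sIL-2, *Mcm6* was among the lowest, and *Pola1* was lower with sIL-2 + IL-21 than with IL-2/21-Trikine. *Mcm5* and *Hells* show the motif as an overlapping pair and as a single copy close to the start. Each stretch is the 170 bases that end just before the start, written 5′ to 3′ on the strand of the gene, with TTTNNCGC or its reverse complement GCGNNAAA in capitals.
Cdc6: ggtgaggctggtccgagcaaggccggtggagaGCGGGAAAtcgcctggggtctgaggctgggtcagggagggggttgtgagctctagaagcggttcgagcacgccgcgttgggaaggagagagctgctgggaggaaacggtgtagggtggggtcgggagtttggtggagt
Mcm5: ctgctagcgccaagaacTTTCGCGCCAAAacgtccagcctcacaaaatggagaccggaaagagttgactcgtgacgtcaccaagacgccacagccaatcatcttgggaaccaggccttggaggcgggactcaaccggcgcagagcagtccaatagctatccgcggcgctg
Mcm6: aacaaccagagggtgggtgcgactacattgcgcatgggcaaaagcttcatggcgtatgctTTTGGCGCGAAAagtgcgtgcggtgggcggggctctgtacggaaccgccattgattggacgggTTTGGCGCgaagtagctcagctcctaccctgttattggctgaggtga
Pola1: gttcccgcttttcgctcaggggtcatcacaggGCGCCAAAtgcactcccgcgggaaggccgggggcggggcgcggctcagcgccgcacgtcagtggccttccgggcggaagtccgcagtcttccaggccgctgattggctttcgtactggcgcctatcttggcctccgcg
Hells: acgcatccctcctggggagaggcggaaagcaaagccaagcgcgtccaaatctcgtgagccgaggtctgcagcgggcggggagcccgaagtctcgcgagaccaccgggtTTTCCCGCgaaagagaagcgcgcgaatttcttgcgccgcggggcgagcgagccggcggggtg
In GRCm38.p6 these stretches lie at chr11:98907981-98908150 on the plus strand (*Cdc6*, ENSMUSG00000017499), chr8:75109339-75109508 on the plus strand (*Mcm5*, ENSMUSG00000005410), chr1:128359706-128359875 on the minus strand (*Mcm6*, ENSMUSG00000026355), chrX:93632156-93632325 on the minus strand (*Pola1*, ENSMUSG00000006678) and chr19:38930820-38930989 on the plus strand (*Hells*, ENSMUSG00000025001). The first base of the match lay 138 bases before the start in *Cdc6*, 153 and 149 in *Mcm5*, 110, 106 and 47 in *Mcm6*, 138 in *Pola1* and 62 in *Hells*. *Mcm6*, with 3 matches, and *Cdc6*, with 1, were near opposite ends of the order of ratios given below. A relation of the number of matches to the ratio was not tested over the members.

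After filtering, the libraries held 7760 cells of the sIL-2 group, 13299 of the IL-2/21-Trikine group and 9798 of the sIL-2 + IL-21 group. The same order of groups holds wherever values are listed without a name. The cells had a median of 12882.5, 10254 and 14055.5 UMIs per cell. The summed T cell markers stood at 5255, 4581 and 4274 CPM (counts per 1e6 UMIs of a library). Of the CD4 and regulatory T cell markers, *Cd4* stayed at or under 1.21 CPM and *Foxp3* at or under 1.12 CPM in every library. The third gene of that list, *Ctla4*, was at 553, 487 and 433 CPM. Stroma and endothelium markers summed to 42.9, 39.4 and 32.1 CPM, of which *Pecam1* made up 42.9, 39.2 and 32.0 CPM. Summed myeloid markers were at 25.8 to 39.1 CPM, melanoma markers at 2.52 to 9.47 CPM, B cell markers at 1.72 to 2.38 CPM and NK cell markers at 4.35 to 8.60 CPM. The 4 hemoglobin genes together were at 68.7 CPM with sIL-2 and at 0.120 and 0.476 CPM in the other libraries. A cell was taken as carrying another type's markers with at least 10 UMIs over at least 4 genes of a list. The lists screened were myeloid, melanoma, B cell, erythroid and stroma, and not those of NK cells or CD4 T cells. By this strict limit 74 kept cells carried such markers. Pairs of libraries shared 18 to 43 cell barcodes.

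The 40 members together were higher in both libraries with an IL-21 component (called the libraries with IL-21 below) than in the sIL-2 library. The name is shorthand and does not mean a shared exposure to IL-21. The Trikine holds only the IL-21 mutant that does not engage the common γ chain, and the sIL-2 + IL-21 group met IL-21 in preconditioning only. The Trikine still signals through the IL-21 receptor. The paper reports that it brings IL-21Rα to IL-2Rβ and the common γ chain. In mouse T cells it induced phosphorylated STAT3 as well as STAT5. The summed level of the 40 members was 1310 CPM with sIL-2, 2017 CPM with IL-2/21-Trikine and 2150 CPM with sIL-2 + IL-21, which is 0.131%, 0.202% and 0.215% of all UMIs. The ratio of IL-2/21-Trikine over sIL-2 was 0.62 on the log2 scale (95% counting interval 0.61 to 0.63, 1.54-fold), and that of sIL-2 + IL-21 over sIL-2 was 0.72 (0.71 to 0.72, 1.64-fold). Between the libraries with IL-21, the log2 ratio of sIL-2 + IL-21 over IL-2/21-Trikine was 0.09 (0.09 to 0.10, 1.07-fold). Summed UMIs cannot tell more replicating cells from more replication transcripts in each. The counts per cell further below use a limit on the same member UMIs, so they do not separate these either. *Pcna*, the sliding clamp, made up 11.9%, 10.2% and 9.79% of member UMIs, so the sum did not rest on 1 gene.

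Every member was above the sIL-2 level in both comparisons. A log2 ratio of at least 0.5 was reached by 34 of the 40 members with IL-2/21-Trikine, where 3.45% of the 11275 genes with a mean of at least 1 CPM did so and 7.42% were at -0.5 or lower, and by 35 of the 40 with sIL-2 + IL-21, where 7.29% of genes did so and 11.3% were at -0.5 or lower. No member was at -0.5 or lower in either comparison. The median member had a log2 ratio of 0.74 and of 0.83, while the median of all genes was -0.08 in both. All 40 members were above 0, against 37.6% and 40.7% of all genes. These comparisons share the sIL-2 library, and the members were chosen with earlier results of these data known. Between the libraries with IL-21 no member passed 0.5 in either direction, where 5.66% of genes were higher and 4.65% lower, and 32 members were above 0 against 50% of genes.

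**Figure D1:**
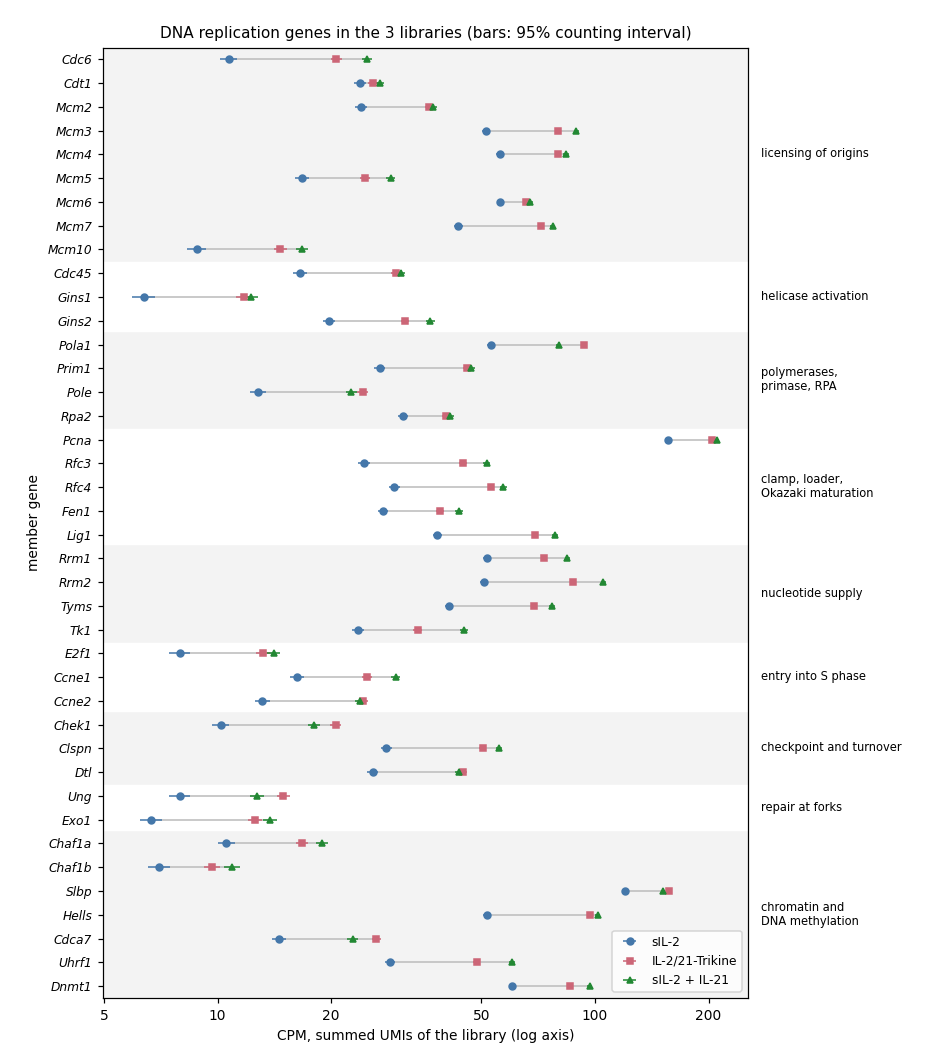
Level of each of the 40 members in the 3 libraries, in CPM on a log axis, grouped by role; horizontal bars are 95% counting intervals. The sIL-2 point is the leftmost in every line, and the points of the other libraries lie close together.

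Among the 9 genes sorted under origin licensing, 7 reached a log2 ratio of 0.5 in each comparison over sIL-2. They include *Mcm10*, which is not a subunit of the helicase ring. *Cdc6*, which recruits the MCM helicase to the origin recognition complex, was at 10.7 CPM with sIL-2, 20.6 CPM with IL-2/21-Trikine and 24.9 CPM with sIL-2 + IL-21, for log2 ratios over sIL-2 of 0.95 (0.86 to 1.04) and 1.22 (1.13 to 1.30). *Cdt1*, its partner in loading, was at 23.9, 25.8 and 26.9 CPM in the same order, with log2 ratios of 0.11 (0.04 to 0.18) and 0.17 (0.10 to 0.24). The factors that load the helicase thus stood near the top and at the bottom of the members by ratio. The helicase subunits also spread out. *Mcm3* was at 51.3, 79.7 and 89.2 CPM (log2 ratios 0.64 and 0.80), *Mcm5* at 16.8, 24.6 and 28.7 CPM (0.56 and 0.78), and *Mcm6* at 56.1, 65.8 and 67.4 CPM (0.23 and 0.26). The proteins of these genes form 1 ring, yet *Mcm6* had less than the 0.5 that *Mcm2*, *Mcm3*, *Mcm4*, *Mcm5* and *Mcm7* reached.

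All 3 genes of helicase activation passed 0.5 in both comparisons. *Gins2*, a subunit of the GINS complex, was at 19.8 CPM with sIL-2, 31.4 CPM with IL-2/21-Trikine and 36.7 CPM with sIL-2 + IL-21 (log2 ratios 0.67 and 0.89). *Cdc45* and *Gins1* had log2 ratios of 0.84 to 0.94.

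The 4 genes for polymerases, primase and the single-strand binding protein RPA were the role with the lowest ratio of sIL-2 + IL-21 over IL-2/21-Trikine, at -0.09 for their sum (-0.12 to -0.07). *Pola1*, the catalytic subunit of polymerase α that starts each DNA strand, was at 53.0 CPM with sIL-2, 93.6 CPM with IL-2/21-Trikine and 80.1 CPM with sIL-2 + IL-21. Its log2 ratio between the libraries with IL-21 was -0.22 (-0.26 to -0.19). *Pole*, the leading-strand polymerase, was at 12.8, 24.2 and 22.6 CPM, with -0.10 (-0.16 to -0.03). Both polymerase genes thus were highest with IL-2/21-Trikine, whereas *Rpa2* was at 31.0, 40.4 and 41.3 CPM and had log2 ratios over sIL-2 of only 0.38 and 0.41. *Prim1*, the primase, had 0.77 and 0.81.

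Of the 5 genes for the clamp, its loader and the joining of Okazaki fragments, 4 passed 0.5 in both comparisons. *Pcna* did not, at 156 CPM with sIL-2, 205 CPM with IL-2/21-Trikine and 211 CPM with sIL-2 + IL-21 (log2 ratios 0.39 and 0.43). *Rfc3*, a subunit of the loader that places PCNA on DNA, was at 24.4, 44.7 and 51.7 CPM (0.87 and 1.08). *Pcna* and *Rfc3* thus differed in their ratios by more than their counting intervals. This did not hold for the whole loader. Of its other subunits, *Rfc4* had 0.85 and 0.96. Outside the list, *Rfc5* had 0.58 and 0.71, *Rfc1* 0.44 and 0.46, and *Rfc2* 0.35 and 0.47, the last 2 near the ratios of *Pcna*. *Lig1*, the ligase that seals Okazaki fragments, had 0.86 and 1.04, and *Fen1*, which trims their flaps, had 0.50 and 0.67.

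The 4 genes of nucleotide supply had the highest ratio of sIL-2 + IL-21 over IL-2/21-Trikine of any role, at 0.24 for their sum (0.22 to 0.26). *Rrm2*, the regulatory subunit of ribonucleotide reductase, was at 50.9 CPM with sIL-2, 87.4 CPM with IL-2/21-Trikine and 105 CPM with sIL-2 + IL-21 (log2 ratios over sIL-2 of 0.78 and 1.05). *Tk1*, the thymidine kinase of the salvage pathway, was at 23.6, 33.9 and 44.9 CPM (0.52 and 0.93). Its log2 ratio between the libraries with IL-21, 0.41 (0.36 to 0.46), was the highest of the 40 members. *Rrm1* and *Tyms* lay between 0.50 and 0.91 over sIL-2.

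The 3 genes of S phase entry all passed 0.5 over sIL-2. *Ccne1* and *Ccne2* code for the E-type cyclins that drive CDK2. *Ccne1* was at 16.3, 24.9 and 29.7 CPM (log2 ratios 0.62 and 0.87) and *Ccne2* at 13.1, 24.2 and 23.9 CPM (0.88 and 0.86). Between the libraries with IL-21 the cyclins parted, with 0.25 (0.19 to 0.31) for *Ccne1* and -0.02 (-0.08 to 0.04) for *Ccne2*. *E2f1* had 0.74 and 0.83.

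The 3 genes of the checkpoint and of protein turnover at the fork also passed 0.5. *Chek1*, the kinase that restrains stressed forks, was at 10.2, 20.6 and 18.0 CPM, and its log2 ratio of IL-2/21-Trikine over sIL-2, 1.01 (0.92 to 1.11), was the highest of the members. *Clspn*, the adaptor that activates this kinase, was at 28.0, 50.5 and 55.7 CPM (0.85 and 0.99). *Dtl*, which marks CDT1 for destruction on loaded PCNA, was at 25.8, 44.7 and 43.6 CPM (0.80 and 0.76). Of the 3, only *Chek1* had an interval below 0 between the libraries with IL-21, at -0.19 (-0.26 to -0.12).

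The 2 repair genes went apart in the same comparison. *Ung*, the glycosylase that removes uracil from DNA, was at 7.93 CPM with sIL-2, 14.9 CPM with IL-2/21-Trikine and 12.7 CPM with sIL-2 + IL-21, and its -0.23 (-0.32 to -0.15) between the libraries with IL-21 was the lowest of the members. *Exo1*, an exonuclease of mismatch repair, was at 6.68, 12.6 and 13.8 CPM (log2 ratios over sIL-2 of 0.92 and 1.04).

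The 7 genes that act on chromatin and DNA methylation behind the fork were mixed. *Slbp*, which binds the ends of histone mRNAs, was at 120 CPM with sIL-2, 157 CPM with IL-2/21-Trikine and 151 CPM with sIL-2 + IL-21, for log2 ratios over sIL-2 of only 0.38 and 0.33. *Hells*, a chromatin remodeler that DNA methylation depends on, was at 51.8, 97.1 and 102 CPM (0.91 and 0.97). *Cdca7*, which recruits that remodeler, was at 14.6, 26.4 and 22.8 CPM (0.86 and 0.65). Partners did not keep 1 order, since *Hells* was at 0.07 and *Cdca7* at -0.21 (-0.27 to -0.15) between the libraries with IL-21. *Uhrf1*, which reads hemimethylated DNA, was at 28.6, 48.6 and 60.3 CPM (0.76 and 1.07), while *Dnmt1*, the methyltransferase it recruits, had 0.51 and 0.68. The histone chaperone subunits *Chaf1a* and *Chaf1b* lay between 0.47 and 0.84.

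Between the libraries with IL-21, 32 of the 40 members were above 0, against 50% of all genes. The 8 members below 0 were *Ccne2*, *Cdca7*, *Chek1*, *Dtl*, *Pola1*, *Pole*, *Slbp* and *Ung*.

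Other genes of the same process had smaller median ratios over sIL-2. Of 48 further replication genes outside the list, such as subunits of the origin recognition complex, polymerases δ and ε and replication factor C, 21 passed 0.5 over sIL-2 in the IL-2/21-Trikine library and 24 did so in the sIL-2 + IL-21 library, and none was at or under -0.5. Their median log2 ratios were 0.46 and 0.50, against 0.74 and 0.83 for the members. *Pold4* and *Donson* were below 0 in both comparisons. Of 30 mitotic genes, 14 passed 0.5 over sIL-2 in the former library and 27 in the latter, with medians of 0.47 and 0.66. Between the libraries with IL-21 the median mitotic gene was at 0.21, the median member at 0.11 and the median other replication gene at 0.05. The summed lists had 0.21, 0.09 and 0.11 in the same order, so the sums of members and other replication genes stood the other way round. The only one of these genes past 0.5 there was the mitotic cyclin *Ccnb2*, at 0.61.

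**Figure D2:**
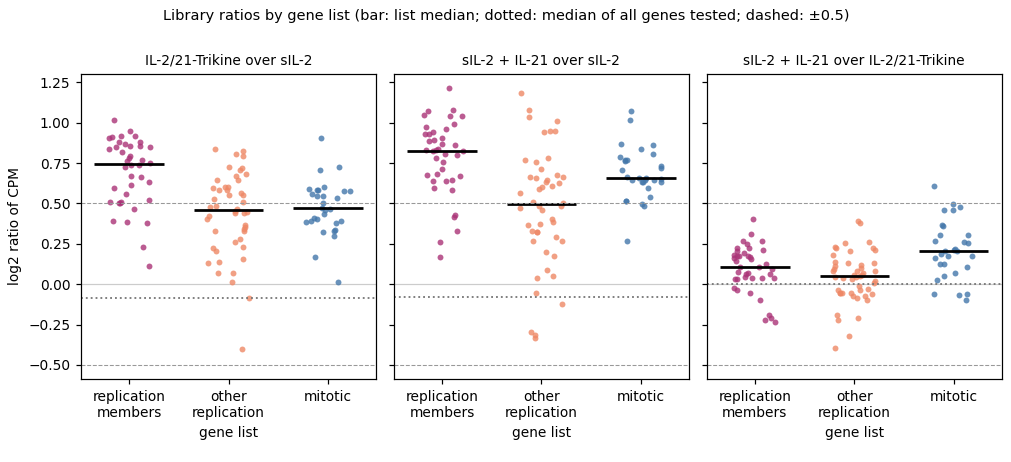
Log2 ratio of CPM of each gene for the 3 pairs of libraries, by gene list; 1 point is 1 gene, the bar is the median of the list, the dotted line is the median of all genes tested and dashed lines mark 0.5 and -0.5. The median of the members is the highest in both comparisons over sIL-2, and in the third pair that of the mitotic genes is.

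The balance of member to mitotic transcripts was not the same in the 3 libraries. Mitotic genes summed to 1572 CPM with sIL-2, 2148 CPM with IL-2/21-Trikine and 2479 CPM with sIL-2 + IL-21. UMIs of the members per UMI of the mitotic genes were 0.833 (0.828 to 0.839), 0.939 (0.934 to 0.943) and 0.868 (0.864 to 0.871) in the same order. The IL-2/21-Trikine library thus had the most member UMIs per UMI of the mitotic list, although the sIL-2 + IL-21 library had more of both in all. *Top2a* was the most abundant gene of the mitotic list, at 219, 358 and 344 CPM. Between the libraries with IL-21 it was at -0.06, whereas 26 of the 30 mitotic genes were above 0. The balance is one of 2 gene lists and does not measure cells in S phase against cells in mitosis.

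The member UMIs were also counted in single cells. Each cell was thinned to 2000 UMIs, which left out 266, 1775 and 364 shallower cells (3.43%, 13.3% and 3.72%), and a cell with 8 or more member UMIs of 2000 was called high in the replication genes. In the sIL-2 library these were 445 of 7494 cells (5.94%, exact binomial interval 5.41 to 6.50). They were 1523 of 11524 cells (13.2%, 12.6 to 13.8) in the IL-2/21-Trikine library and 1391 of 9434 cells (14.7%, 14.0 to 15.5) in the sIL-2 + IL-21 library. The limit cut a continuous range, and 198, 626 and 702 cells were at 7 or 8 UMIs. Without thinning, 44.0%, 43.5% and 55.1% of cells had 8 or more member UMIs. With a limit of 12 UMIs the shares were 1.81%, 5.24% and 4.60%, so that the order of the libraries with IL-21 turned around.

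High cells had similar shares of replication transcript in the 3 libraries, although the limit of 8 itself sets the lower end of these values. They are shares of 2000 UMIs and not amounts per cell, and the depth of high cells, given below, differed between the libraries. The mean per high cell was 10.9, 11.3 and 10.8 member UMIs of 2000, and such a cell had UMIs of a median of 9, 9 and 8 different members. The remaining cells had a mean of 1.36, 1.79 and 2.00 member UMIs. No member UMI was found in 31.7%, 24.9% and 23.8% of cells. Cells above the limit held 33.6%, 48.9% and 48.2% of all member UMIs. Among the cells with myeloid markers, which are no clean background because they may divide themselves, 2 of 53 were high (3.77%, 0.460 to 13.0) at a median depth of 19162 UMIs.

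**Figure D3:**
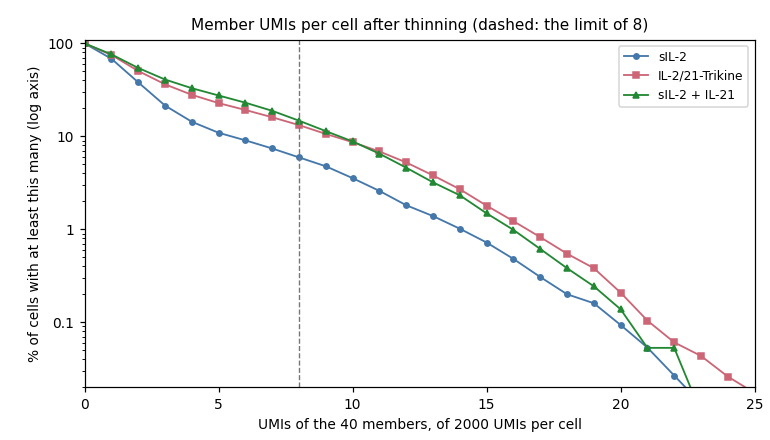
Share of cells with at least a given number of member UMIs after thinning to 2000 UMIs per cell, on a log axis; the dashed line is the limit of 8. The sIL-2 curve runs lowest up to about 20 UMIs, and the curves with IL-21 cross between 8 and 12 UMIs.

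Within high cells the members' ratios lay closer to 0 than in the summed libraries. For each member, cells were taken with 8 or more UMIs of the other members, so that the member did not choose its own cells, although taking cells above 1 limit in every library brings their summed levels together by construction. In them the median log2 ratio of the members was 0.10 when IL-2/21-Trikine was set over sIL-2, -0.07 when sIL-2 + IL-21 was set over sIL-2, and -0.11 between the libraries with IL-21. Of the 40 members, 25 were above 0 in the first of these comparisons, 15 in the second and 10 in the last. In the first, the lowest member was *Cdt1* at -0.52 and the highest was *Ung* at 0.93. An interval above 0 was found for 7, 3 and 0 members in these comparisons, and one below 0 for 2, 0 and 7. In cells with 0 or 1 UMI of the other members the medians were 0.32, 0.30 and 0.01. There, 28 and 30 of the 40 members were above 0 in the comparisons over sIL-2, of which 12 and 13 had an interval above 0. Below 0 were 12 and 10 members, of which 3 and 4 had an interval below 0. The share of all genes above or below 0 in the same cells was not taken, so the counts of this paragraph have no background beside them.

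Members differed in how strongly they followed the rest of the list. The level in cells with 8 or more UMIs of the other members, over that in cells with 0 or 1, gave a log2 ratio of 6.30 for *Cdc6* (5.71 to 6.96), 5.54 for *Exo1*, 5.53 for *Mcm10*, 5.50 for *Clspn* and 5.09 for *Rrm2*. The lowest were *Slbp* at 1.63 (1.54 to 1.71), *Cdt1* at 1.82, *Pcna* at 2.17, *Rpa2* at 2.28 and *Mcm6* at 2.32. These last 5 are also the members under 0.5 in the comparison of sIL-2 + IL-21 over sIL-2. Across the 40 members, this measure and the ratio over sIL-2 had a Pearson's r of 0.69 (Spearman's rho 0.66) in the IL-2/21-Trikine library and of 0.77 (0.72) in the sIL-2 + IL-21 library, while for the ratio between the libraries with IL-21 it was 0.23 (0.24). Both measures come from the same libraries and members are not replicates, so these values are a description.

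The relation to mitotic genes was followed in the same thinned cells. Member and mitotic UMIs per cell had a Spearman's rho of 0.317, 0.485 and 0.537 in the 3 libraries, over 7494, 11524 and 9434 cells. Cells with 6 or more mitotic UMIs were 9.66%, 16.6% and 22.5% of the libraries. The member level climbed with the mitotic class, from 584 CPM in cells without a mitotic UMI to 3137 CPM in cells with 6 or more with sIL-2, from 716 to 3671 CPM with IL-2/21-Trikine and from 686 to 3247 CPM with sIL-2 + IL-21.

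At equal mitotic class, IL-2/21-Trikine had the highest member level of the 3 libraries. Its fold over sIL-2 was 1.23, 1.50, 1.59 and 1.17 in cells with 0, 1 to 2, 3 to 5 and 6 or more mitotic UMIs. The fold of sIL-2 + IL-21 over IL-2/21-Trikine was 0.957, 0.950, 0.870 and 0.885 in the same classes, which is below 1 in all 4, whereas the pooled fold was 1.07. With each library given the class shares of the other, the log2 ratio of sIL-2 + IL-21 over IL-2/21-Trikine was -0.15 and -0.13, against 0.11 with their own shares. The log2 ratio over sIL-2 went from 0.66 to between 0.38 and 0.40 for IL-2/21-Trikine, and from 0.77 to between 0.24 and 0.28 for sIL-2 + IL-21.

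Some high cells held many replication transcripts and few mitotic ones, and their place in the cell cycle was not measured. Of the cells high in the members, 24.7% (20.8 to 29.0) had 0 to 2 mitotic UMIs in the sIL-2 library, 21.5% (19.5 to 23.7) in the IL-2/21-Trikine library and 16.5% (14.6 to 18.6) in the sIL-2 + IL-21 library. Cells under 8 member UMIs with 6 or more mitotic UMIs were 6.29%, 9.07% and 14.3% of all cells.

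Depth moved with the member level and is set beside it. The median depth of high cells was 27469, 20001 and 23096 UMIs, against 12722, 10651 and 13089 UMIs in the remaining thinned cells, and member CPM and UMIs per cell had a Spearman's rho of 0.309, 0.488 and 0.529 over the cells of 2000 UMIs or more. The part of depth in the differences between libraries was not tested beyond the bins that follow. The level did not follow depth evenly. It was 763, 1071 and 1095 CPM in cells of 2000 to 5000 UMIs and lowest in cells of 5000 to 10000 UMIs, at 545, 658 and 675 CPM. It was 1787, 3013 and 2783 CPM from 20000 to 40000 UMIs, and in cells of 40000 UMIs or more it was 2063, 2510 and 2687 CPM, which is lower again in both libraries with IL-21. In all 6 bins of depth the libraries with IL-21 were above sIL-2, by 1.21-fold to 2.44-fold for IL-2/21-Trikine and 1.24-fold to 2.17-fold for sIL-2 + IL-21. The fold of sIL-2 + IL-21 over IL-2/21-Trikine was below 1 in 3 bins, at 0.818 under 2000 UMIs, 0.888 from 10000 to 20000 UMIs and 0.924 from 20000 to 40000 UMIs. Cells under 2000 UMIs, which are 13.3% of the IL-2/21-Trikine library, had a member level of 970 CPM with sIL-2, 2349 CPM with IL-2/21-Trikine and 1921 CPM with sIL-2 + IL-21.

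**Figure D4:**
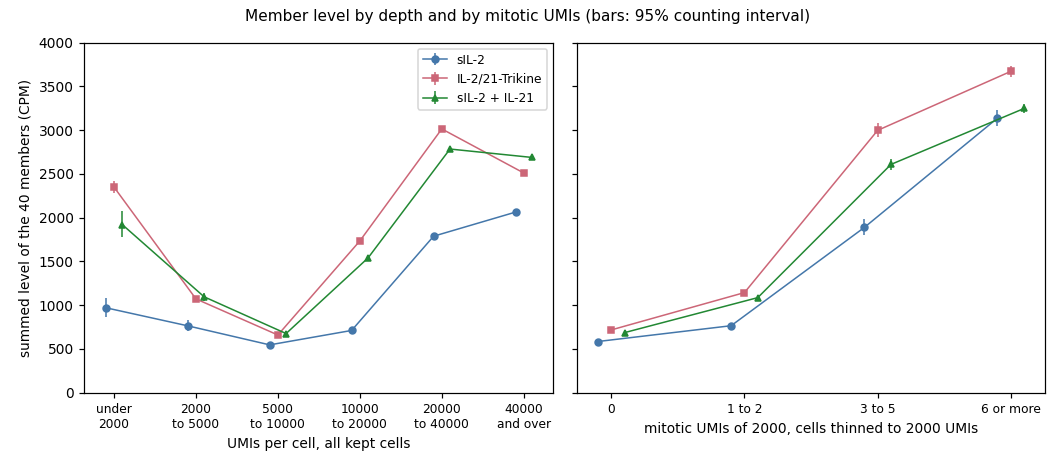
Summed level of the 40 members in CPM by UMIs per cell (left) and by mitotic UMIs in cells thinned to 2000 UMIs (right), for the 3 libraries; bars are 95% counting intervals. The sIL-2 line is the lowest in each bin and class, and the IL-2/21-Trikine line is the highest in every mitotic class.

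The members were not tied to mitotic genes to the same extent. Within cells with 8 or more UMIs of the other members, the level in cells with 6 or more mitotic UMIs was set over that in cells with 0 to 2. *Ung* had a log2 ratio of -1.48 in the 3 libraries together, *Cdca7* -1.01, *Mcm2* -0.60, *Mcm6* -0.38 and *Mcm3* -0.34. Their share of the UMIs was thus lower in the cells rich in mitotic transcripts, which does not give the amount per cell. *Hells* also had an interval below 0, at -0.29 (-0.49 to -0.09). *Chek1*, at -0.43, did not (-0.86 to 0.02). *Rrm2* had 1.83, *Rrm1* 0.83, *Clspn* 0.81, *Tyms* 0.73, *Cdc45* 0.68 and *Tk1* 0.66, with a higher share of the UMIs in the cells rich in mitotic transcripts. By role, all 4 genes of nucleotide supply were above 0, while the 9 genes sorted under licensing were mixed. *Mcm2*, *Mcm3*, *Mcm4* and *Mcm6* had intervals below 0 and *Mcm5* was at -0.20, whereas *Cdt1* was at 0.24, *Mcm7* at 0.20 and *Cdc6* at 0.09. *Mcm10*, not a subunit of the helicase ring, was at 0.54 (0.02 to 1.09), the only interval above 0 in this role. In all, 18 members had an interval above 0 and 7 had one below 0, and 21 members were above 0 and 8 below 0 in each of the 3 libraries taken alone. The share of all genes above or below 0 between these cells was not taken, so these counts have no background beside them. Across the 40 members, this measure and the library ratio had a Pearson's r of -0.02 (Spearman's rho -0.01) in the comparison of IL-2/21-Trikine with sIL-2, of 0.29 (0.36) in that of sIL-2 + IL-21 with sIL-2 and of 0.49 (0.34) between the libraries with IL-21, given as a description. Single members went against the last of these, such as *Pola1*, which had 0.47 by this measure and -0.22 between the libraries with IL-21.

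**Figure D5:**
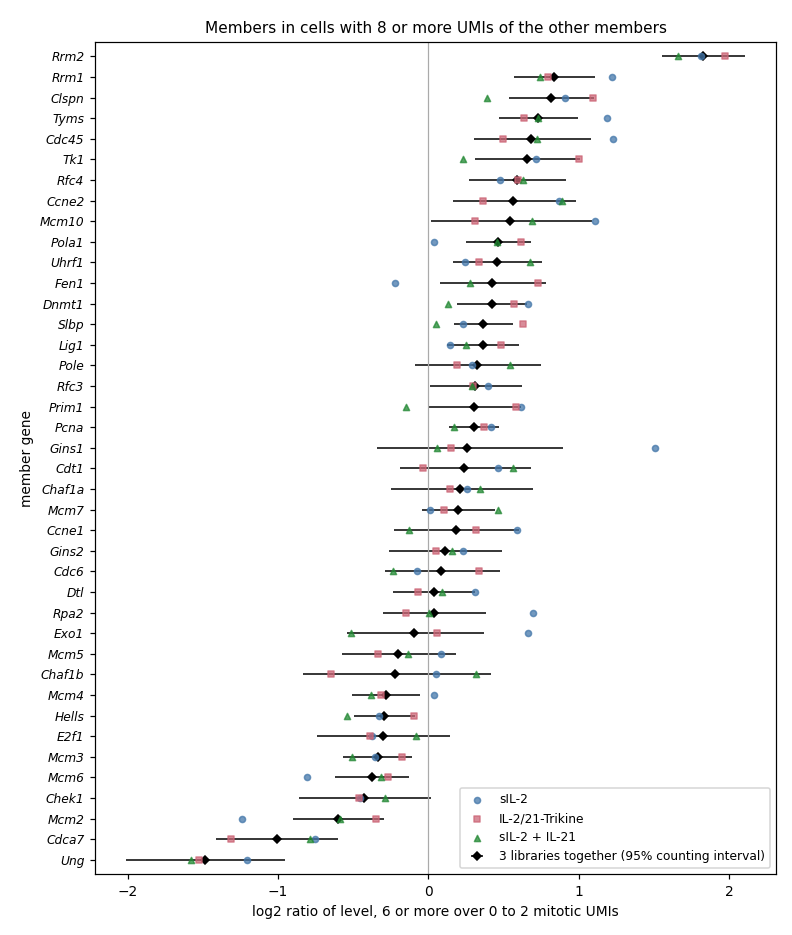
For each member, log2 ratio of its level in cells with 6 or more over cells with 0 to 2 mitotic UMIs, among cells with 8 or more UMIs of the other members; coloured points are single libraries and diamonds are the 3 libraries together with a 95% counting interval. *Rrm2* stands at the top at 1.83 and *Ung* at the bottom at -1.48.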

How the data were processed

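Sorted intratumoral pmel T cells were sequenced in 3 libraries, 1 per treatment. The deposited values are raw counts of UMIs for each gene in each cell, which the authors made with Cell Ranger 9.0.0, intronic reads included, and did not normalize. The methods name a GRCm39 reference and the labels name mm10, and no gene coordinates of the count tables are given for that reason. Barcodes with 500 to 120000 UMIs and at most 20% of UMIs from 13 mitochondrial genes were kept (30857 of 31026). UMIs were summed per library and scaled to CPM. Ratios carry exact 95% intervals from the binomial distribution of the counts, which cover counting error only. The totals of 130200802 (sIL-2), 166772854 (IL-2/21-Trikine) and 168041089 UMIs (sIL-2 + IL-21) set this precision. UMIs were thinned per cell with a fixed seed. The study compared single cells by a rank test, which was not used because cells are not replicates. Doublets were kept: Scrublet in scanpy 1.11.5 marked 4, 0 and 0 cells and thus had not worked, so the 5% of cells with the highest score were left out in an alternative only. Values in all libraries are given for the highest member of each role, for the 5 highest and 5 lowest ratios of each pair and for members with a sign opposite to that of the sum, plus *Mcm5* and *Hells*, whose promoters are printed. Other members are given by ratio, counts and ranges. The members, the gene lists and the roles were chosen with earlier results of these data known. Scripts ran in Python 3.11.15 with numpy 2.4.6, scipy 1.17.1 and pandas 2.3.3 and were tested on simulated data. Other experiments of the study are not analysed here.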

Additional observations from a re-analysis of the deposited data

How the results depend on the processing

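No paired analysis was possible because there was 1 library per treatment. Under 6 alternatives of filters, weights, scaling and cells left out, all 40 members stayed above 0 in both comparisons over sIL-2. The log2 ratio of the summed members over sIL-2 became 0.76 for the IL-2/21-Trikine library and 0.80 for the sIL-2 + IL-21 library with each cell weighted equally, 0.70 and 0.80 with size factors from the median of ratios, and 0.65 and 0.75 without *Pcna*. The log2 ratio of sIL-2 + IL-21 over IL-2/21-Trikine became 0.044 with each cell weighted equally, and 29 rather than 32 members were then above 0. At a log2 limit of 1, 1 member passed over sIL-2 in the IL-2/21-Trikine library and 6 did in the sIL-2 + IL-21 library, and at 0.25 the count of 0 members between the libraries with IL-21 became 5. The shares of all genes past these limits were not taken, so these counts have no background beside them. The shares of high cells, listed in the order of the report, were 10.9%, 22.8% and 27.5% at a limit of 5 UMIs and 1.81%, 5.24% and 4.60% at 12 UMIs. Thinning to 5000 UMIs with a limit of 20 gave 5.37% with sIL-2, and thinning to 1000 UMIs with a limit of 4 gave 15.3% of the IL-2/21-Trikine cells and 16.5% of the sIL-2 + IL-21 cells. The counts of members past 0.5 with stricter limits on cells, without cells that carry other markers and without cells of high Scrublet score were alternatives chosen after seeing the data, and gave 33 or 34 members in the IL-2/21-Trikine library and 35 in the sIL-2 + IL-21 library. Shares of all genes past 0.5 or above 0 were likewise not taken under the alternatives of cells, weights or scaling. Only the median of all genes was, and it moved with the setting. With size factors from the median of ratios it was -0.004 for IL-2/21-Trikine over sIL-2, against -0.08 as reported. For sIL-2 + IL-21 over sIL-2 it became 0.005, against -0.08. Between the libraries with IL-21 it was -0.02 with each cell weighted equally, against 6.4e-05. Depth limits the single-cell values, since each cell gave only 2000 UMIs after thinning.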

Other observations

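Regulators of S phase entry are set here beside the replication genes. This list of 24 genes was chosen after results were seen, and its values are given without a test. Of the activators, *Ccna2*, the cyclin of S phase and mitosis, was at 34.1 CPM with sIL-2, 50.5 CPM with IL-2/21-Trikine and 60.6 CPM with sIL-2 + IL-21, for log2 ratios over sIL-2 of 0.57 and 0.83. *Cdk4*, a kinase partner of the D-type cyclins, had 0.42 and 0.47, while the other such kinase, *Cdk6*, had -0.32 and 0.07. *Cdk2* had 0.46 and 0.58. The repressive factors *E2f7* and *E2f8*, which damp E2F targets, had 0.82 and 0.79, and 0.85 and 0.97, whereas *E2f4* had -0.12 and 0.14. The D-type cyclin genes *Ccnd2* and *Ccnd3* were on the other side of 0, with -0.14 and -0.27 for *Ccnd2* and -0.18 and -0.42 for *Ccnd3*. *Rb1*, the retinoblastoma gene, had -0.18 and -0.26, and its relatives had -0.28 and -0.02 (*Rbl2*) and 0.43 and 0.31 (*Rbl1*). *E2f2*, *E2f3*, *Tfdp1* and *Cdc25a* lay between 0.17 and 0.54. *Ccnd1* and the inhibitor gene *Cdkn1c* were at or under 0.76 CPM in every library.

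The inhibitors of cyclin-dependent kinases spread widely. *Cdkn1a*, which codes for p21, was at 484 CPM with sIL-2, 207 CPM with IL-2/21-Trikine and 274 CPM with sIL-2 + IL-21, for log2 ratios over sIL-2 of -1.22 and -0.82. *Cdkn1b* was at 109, 87.5 and 70.5 CPM, with -0.32 and -0.63. *Cdkn2a*, the source of p16 and p19ARF, was at 86.7, 28.6 and 72.6 CPM, with -1.60 and -0.26. *Cdkn2b* was at 13.7, 4.09 and 7.40 CPM, with -1.75 and -0.89. *Cdkn2c* and *Cdkn2d* lay between -0.03 and 0.37. *Cdkn2c* was above 0 in both comparisons over sIL-2, so the inhibitors did not share 1 direction.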
